A study of Mus musculus with 21 samples.

Results

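In 6 of 21 mouse cecum libraries, transcripts of the last part of the small intestine, the ileum, stood far above their level in the other 15. The 6 libraries were chosen by their counts of 3 genes, all high in each of the 6. These were Fabp6, which encodes the bile acid carrier of ileal enterocytes, Apoa1, an apolipoprotein made by small intestine enterocytes, and Defa24, an antimicrobial defensin of Paneth cells. The mice were C57BL/6, an inbred strain, and entered the study at 3 weeks of age. All 21 ate the Total Western Diet, a rodent diet modelled on American nutrient intake, for 6 weeks. They then ate it for 3 more weeks with broccoli powder at 0%, 0.5%, 1.0% or 2.5%, and the study asked how broccoli changes the gut microbes and gene expression. The sets held 6, 5, 5 and 5 mice at 0%, 0.5%, 1.0% and 2.5%. The 6 libraries with ileal signal were 0% replicate 5, 0.5% replicates 1 and 4, 1.0% replicate 1, and 2.5% replicates 1 and 2. Cecum messenger RNA was sequenced from each mouse, as whole tissue. The labels number the animals and name no cage.

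The cecum is the blind pouch at the junction of small and large intestine, and the ileum opens into it. Ileal enterocytes take up bile acids, cobalamin, lipids and digestion products through a brush border rich in enzymes and carriers. Paneth cells sit at the base of small intestine crypts and secrete lysozyme and defensins; in mice they are scarce in the large bowel. The large bowel epithelium is known instead for water and electrolyte transport, and posterior Hox genes mark the hind part of the gut.

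Because the libraries were set apart by marker counts, levels, log2 changes and counts of small intestine genes past the threshold are given as a description, with no p, and support nothing. For other genes, a p measures how the 2 sets of these libraries differ relative to their spread. It tests no treatment.

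The promoters of a chooser gene and of a classic brush-border gene are shown for reference, since both genes were high in the same 6 libraries. Each is the 250 bases before the RefSeq start of the gene on GRCm38.p6, minus strand, written 5′ to 3′. Fabp6 lies at chr11:43601563-43601812 in this window and Sis, the brush-border sucrase-isomaltase, at chr3:72967864-72968113. Capitals mark TTTATNG, one form of the sequence bound by the intestinal homeobox factor CDX2. It was searched on both strands after several motifs had been looked at.
Fabp6: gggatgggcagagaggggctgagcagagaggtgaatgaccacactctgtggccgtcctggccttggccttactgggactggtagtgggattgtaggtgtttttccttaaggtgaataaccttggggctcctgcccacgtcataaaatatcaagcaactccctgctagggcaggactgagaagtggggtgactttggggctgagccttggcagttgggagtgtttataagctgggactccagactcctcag
Sis: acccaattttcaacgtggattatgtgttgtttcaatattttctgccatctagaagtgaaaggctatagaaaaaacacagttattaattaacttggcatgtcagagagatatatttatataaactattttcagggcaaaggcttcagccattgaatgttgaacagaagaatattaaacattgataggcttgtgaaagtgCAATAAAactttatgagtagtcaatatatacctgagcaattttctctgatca
The Sis window held 1 match, starting at position -52 from the gene start, and the Fabp6 window held 0. Of 32851 RefSeq promoters of this length, 9.81% held at least 1 match, so a match is common and is no evidence of a bound site.

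Sequencing depth overlapped between the 2 sets. Totals ran from 33132637 to 42687431 counts in the 6 libraries with ileal signal and from 28514263 to 58594569 in the other 15. Mitochondrial genes took 22.6% to 30.8% of counts in the 6 and 22.1% to 31.8% in the 15. At least 1 count was found for 16905 to 17352 genes in the 6 libraries and for 16838 to 17357 in the 15. Levels below are CPM, counts per 1e+06 counts of a library, scaled for library composition. They are not divided by transcript length, so levels are compared between libraries and not between genes. All 21 libraries held the large bowel gene Car1, a carbonic anhydrase, at 2868 CPM or more.

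Fabp6 (chr11:43596049-43601540, mm10) had 63.3 CPM in 0% replicate 5, 9.43 and 19.8 CPM in 0.5% replicates 1 and 4, 71.7 CPM in 1.0% replicate 1, and 11.8 and 13.98 CPM in 2.5% replicates 1 and 2. In the other 15 libraries it lay between 0.106 and 1.84 CPM, with a median of 0.419. Apoa1 (chr9:46228580-46230466) ran from 20.4 CPM in 2.5% replicate 1 to 323 CPM in 1.0% replicate 1, with 317 CPM in 0% replicate 5, against 0.252 to 3.07 CPM in the 15. Defa24 (chr8:21734494-21735471) ran from 0.463 CPM in 2.5% replicate 2 to 47.3 CPM in 1.0% replicate 1, and had a count of 0 in 10 of the 15. The choice of libraries was clear for Fabp6 and Apoa1 and narrow for Defa24. The lowest Defa24 level inside the set rested on 16 counts, and the highest level outside it, 0.396 CPM in 1.0% replicate 5, on 25 counts. 1.0% replicate 5 also had the highest Fabp6 and Apoa1 levels among the 15. In all 3 markers, 0% replicate 5 and 1.0% replicate 1 were the 2 highest of the 21 libraries.

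Over 15652 genes tested, 201 were called higher in the 6 libraries, which is 1.28% of them, and 17 were called lower, or 0.109%. Together they made 218 genes, or 1.39%. The call was an adjusted p under 0.05 in edgeR's quasi-likelihood test with diet in the model. The log2 changes below are the 6 libraries over the 15, and a positive value means higher in the 6. Each standard error (SE) was worked back from the log2 change and its test statistic, and was not fitted directly. The median log2 change of all genes tested was -0.0005. Of the genes called higher, 97 were over 2-fold and 32 over 8-fold. Some genes passed the filter on low counts only through the 6 libraries, so these counts are a description. Olfm4, at most 0.123 CPM in the 15, was such a gene. In 43 genes, or 0.275%, all 6 libraries stood above all 15. In 168 of the 201, the highest levels of the 21 libraries were those of 0% replicate 5 and 1.0% replicate 1, and in 146 all 6 libraries stood above the median of the 15. The count called higher was 94 without 0% replicate 5, 107 without 1.0% replicate 1 and 44 without both, and all 44 were among the 201.

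**Figure D1:**
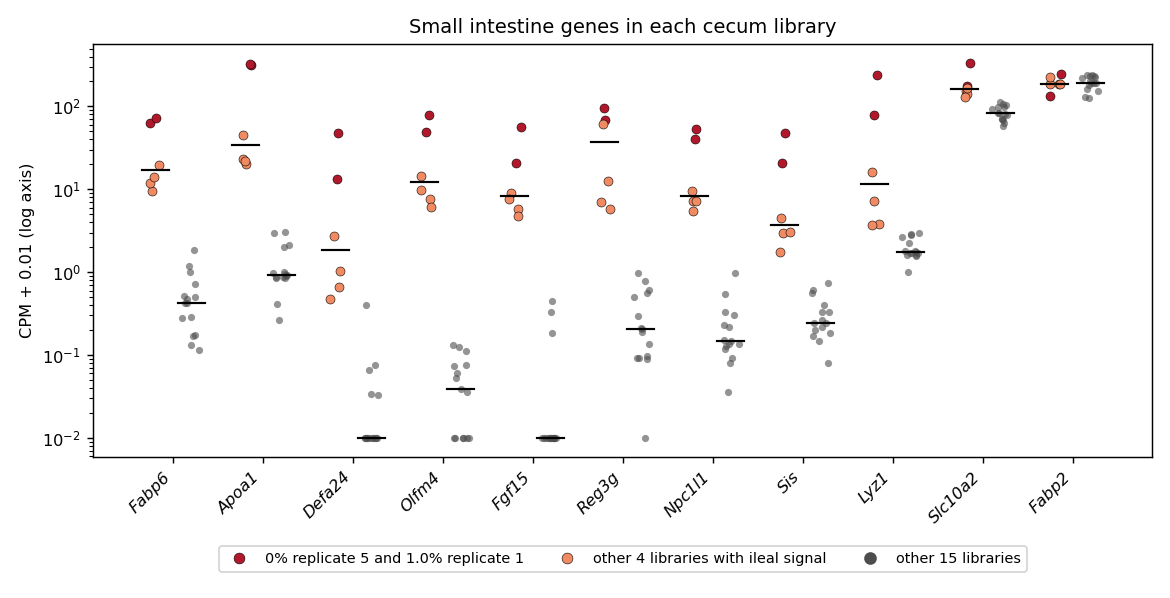
Level of 11 small intestine and defence genes in each library, in CPM on a log axis after adding 0.01. Red points are 0% replicate 5 and 1.0% replicate 1, orange points the other 4 libraries with ileal signal, grey points the other 15, and bars are medians. For 10 of the 11 genes the 6 libraries lie above the 15, and for Fabp2 they overlap.

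Genes of the small intestine made up much of the largest changes. Of 65 tested genes in 7 lists of small intestine functions, 38 were called higher and 0 lower, with a median log2 change of 0.78. In 22 of the 65, all 6 libraries stood above all 15. These lists took 0.222% to 0.649% of all counts in the 6 libraries and 0.167% to 0.201% in the 15. The lists include the chooser genes and were written with earlier results of these libraries known, so the counts add no independent evidence of direction.

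Fgf15, the hormone by which the mouse ileum restrains bile acid synthesis in the liver, showed the sharpest contrast of the bile acid genes. It had 57.2 CPM in 0% replicate 5, 5.77 and 8.92 CPM in 0.5% replicates 1 and 4, 20.96 CPM in 1.0% replicate 1, and 4.69 and 7.70 CPM in 2.5% replicates 1 and 2. In the 15 libraries it had a count of 0 in 12 and at most 0.434 CPM. The fitted log2 change was 8.05 ± 0.61 (SE), which depends on the prior count because most of the 15 were at 0. Fgf15 lies at chr7:144896531-144900953 opposite 2 predicted genes, and whether counting used strand is unknown here.

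Slc10a2, the apical sodium-dependent bile acid transporter, was present in every library. It had 178.5 CPM in 0% replicate 5, 154.5 and 141 CPM in 0.5% replicates 1 and 4, 337 CPM in 1.0% replicate 1, and 168 and 131 CPM in 2.5% replicates 1 and 2, against 57.3 to 113 CPM in the 15. The 2 sets did not overlap, and the log2 change was 1.09 ± 0.17 (SE). The list of ileal bile acid and cobalamin handling had 5 of 8 tested genes called higher and 0 lower. Cubn, which encodes the receptor for cobalamin bound to intrinsic factor, ran from 7.32 to 49.4 CPM in the 6 and from 4.09 to 7.45 CPM in the 15. Nr1h4, the bile acid receptor FXR, was not called; it ran from 120 to 176 CPM in the 6 and from 96.0 to 156 CPM in the 15. The basolateral bile acid exporter subunit Slc51a was also not called, with a log2 change of 0.53 ± 0.14 (SE).

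Sterol and lipid genes followed the same division. Npc1l1, the cholesterol carrier of the enterocyte brush border, had 40.2 CPM in 0% replicate 5, 5.49 and 9.62 CPM in 0.5% replicates 1 and 4, 53.6 CPM in 1.0% replicate 1, and 7.12 and 7.15 CPM in 2.5% replicates 1 and 2, against 0.0261 to 0.959 CPM in the 15. The log2 change was 6.64 ± 0.38 (SE). Abcg5 and Abcg8, whose proteins pair to pump sterols back into the lumen, differed by 6.63 ± 0.37 and 5.51 ± 0.36 on the log2 scale. These 2 genes overlap on opposite strands, so their counts may not be separate. Mttp, which loads lipid onto apolipoprotein B, ran from 6.76 to 59.1 CPM in the 6 and from 2.72 to 4.05 CPM in the 15. Apoa4, another apolipoprotein of enterocytes, ran from 4.42 to 41.4 CPM in the 6 and from 0.730 to 4.37 CPM in the 15. Of 13 tested lipid absorption genes, 8 were called higher and 0 lower, with a median log2 change of 1.34. Fabp2, the intestinal fatty acid binding protein, was not among them, with 135 to 248 CPM in the 6 and 127 to 237 CPM in the 15.

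Brush-border enzymes had the highest median log2 change of the 4 absorption lists, 1.72, with 11 of 15 tested genes called higher and 0 lower. Sis, whose promoter is printed above, had 20.5 CPM in 0% replicate 5, 2.95 and 4.44 CPM in 0.5% replicates 1 and 4, 48.1 CPM in 1.0% replicate 1, and 3.02 and 1.74 CPM in 2.5% replicates 1 and 2. In the 15 libraries it ran from 0.0707 to 0.731 CPM. The aminopeptidases Anpep and Enpep had medians of 74.4 and 50.6 CPM in the 6 and of 9.98 and 14.4 CPM in the 15. Summed over the list, the 2 highest libraries had 1590 and 2542 CPM and the other 4 had 799 to 899 CPM, against 540 to 721 CPM in the 15. Lct, which encodes lactase, was at or under 0.439 CPM in the 6 and at or under 0.655 CPM in the 15.

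Of 14 tested carriers of sugars, peptides, amino acids and phosphate, 9 were called higher and 0 lower. Slc7a9, a cystine and basic amino acid exchanger, ran from 2.84 to 39.8 CPM in the 6 and from 0.0471 to 0.475 CPM in the 15. Slc6a19, the main neutral amino acid carrier of the brush border, ran from 4.08 to 68.5 CPM in the 6 and from 0.428 to 1.62 CPM in the 15. Slc15a1, the di- and tripeptide carrier, ran from 2.46 to 29.2 CPM in the 6 and from 0.169 to 1.76 CPM in the 15. Slc34a2, a sodium-phosphate carrier, overlapped between the sets, with 20.1 to 176 CPM in the 6 and 4.83 to 27.6 CPM in the 15.

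Genes of the proximal small intestine were not called. Of 9 tested genes of that list, 0 were called in either direction by edgeR, and the median log2 change was 0.12. Fabp1, the liver-type fatty acid binding protein that is abundant in the jejunum, reached 0.197 CPM at most in the 6 and 0.163 CPM in the 15, and was too low to test. Gata4, a transcription factor of duodenum and jejunum that is absent from distal ileum, was also too low to test. It had 0.963 CPM in 0% replicate 5 and 0.475 CPM in 1.0% replicate 1, against at most 0.244 CPM in the 15.

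Paneth cell genes were highest in 2 libraries. Lyz1, the Paneth cell lysozyme, had 78.4 CPM in 0% replicate 5, 3.81 and 16.04 CPM in 0.5% replicates 1 and 4, 243 CPM in 1.0% replicate 1, and 7.23 and 3.73 CPM in 2.5% replicates 1 and 2, against 0.992 to 2.98 CPM in the 15. Itln1, an intelectin that binds microbial sugars, ran from 0.279 to 19.3 CPM in the 6 and was at most 0.319 CPM in the 15. The table listed 22 alpha-defensin genes, 19 of them with counts, and their counts lay mostly in the 6 libraries. Leaving out Defa24, which chose the libraries, 3499 of 3525 alpha-defensin counts lay in the 6 and 26 in the 15, and the 2 highest libraries alone held 3347. Of the alpha-defensins only Defa24 passed the filter on low counts, so the others are described by counts alone. In the Paneth list, which leaves out Defa24, 14 of the 17 genes found were not tested. Defensin genes are near-identical copies, so the split between them is uncertain, as is the split of Lyz1 from its close copy Lyz2. Ang4, an angiogenin of Paneth and goblet cells, was not called and reached 24.0 CPM in the 6 and 24.8 CPM in the 15.

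**Figure D2:**
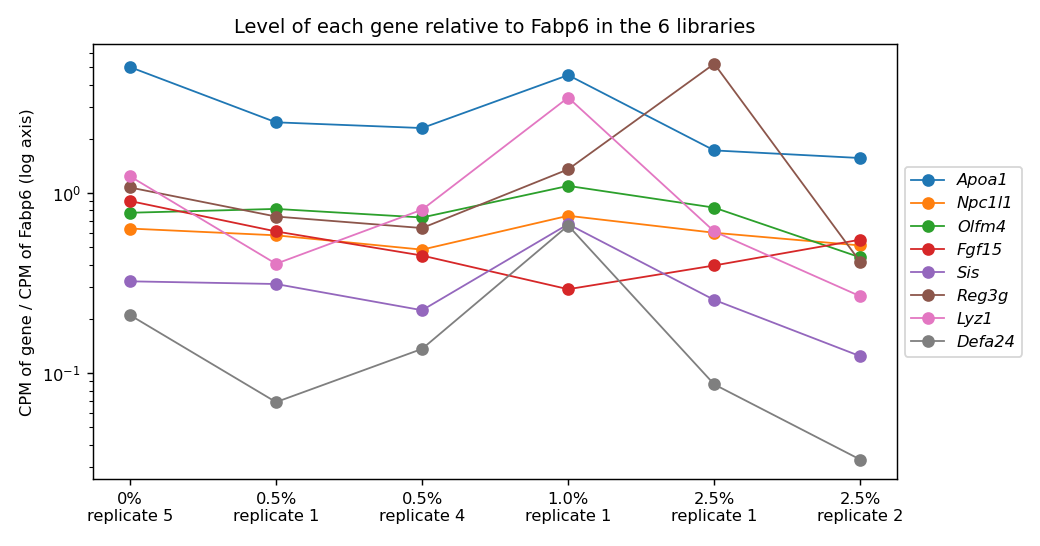
CPM of 8 genes divided by the CPM of Fabp6 in the same library, on a log axis, for the 6 libraries with ileal signal. Lines only join the points of a gene. Npc1l1 stays between 0.485 and 0.747, while Defa24 and Lyz1 peak in 1.0% replicate 1 and Reg3g in 2.5% replicate 1.

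The proportions of these genes differed among the 6 libraries. Relative to Fabp6 in the same library, Npc1l1 varied 1.54-fold between the lowest and highest of the 6, Olfm4 2.50-fold, Fgf15 3.09-fold and Sis 5.41-fold. Itln1 varied 9.08-fold, Lyz1 12.7-fold and Mptx2, a mucosal pentraxin of Paneth cells, 15.8-fold. Of the other chooser genes, Apoa1 varied 3.20-fold and Defa24 19.9-fold. The ratios of Sis, Npc1l1, Olfm4, Slc6a19, Itln1, Lyz1, Mptx2 and Defa24 were all highest in 1.0% replicate 1, so this was not particular to Paneth cell genes. In that library Fgf15 over Fabp6 was lowest, at 0.292, against 0.903 in 0% replicate 5. Reg3g over Fabp6 was 5.21 in 2.5% replicate 1 and between 0.414 and 1.35 in the other 5 libraries. These ratios describe single libraries, carry no replicate error and are set against a chooser gene, so they are a description only.

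Some of the largest differences came from crypt and defence genes. Olfm4, a secreted glycoprotein of small intestine crypt stem cells, had 49.2 CPM in 0% replicate 5, 7.69 and 14.5 CPM in 0.5% replicates 1 and 4, 78.5 CPM in 1.0% replicate 1, and 9.81 and 6.14 CPM in 2.5% replicates 1 and 2. In the 15 libraries it had a count of 0 in 6 and at most 0.123 CPM. The fitted log2 change of Olfm4, 9.66 ± 0.36 (SE), was the largest of the genes named by rule. With levels so low in the 15, this value too depends on the prior count. Lgr5, the receptor that marks crypt stem cells throughout the intestine, was not called, with 30.8 to 38.2 CPM in the 6 and 22.3 to 39.8 CPM in the 15. Reg3g, an antibacterial lectin of the epithelium, had 67.9 CPM in 0% replicate 5, 6.98 and 12.7 CPM in 0.5% replicates 1 and 4, 97.0 CPM in 1.0% replicate 1, and 61.7 and 5.79 CPM in 2.5% replicates 1 and 2, against 0 to 0.978 CPM in the 15. Its close copy Reg3b had the same order of libraries, and reads of the pair may not be told apart. Clca4b, a calcium-activated chloride channel regulator, ran from 15.3 to 221 CPM in the 6 and from 0.489 to 2.90 CPM in the 15. The RIKEN gene 2010106E10Rik, outside the rule for named genes, ran from 0.666 to 18.2 CPM in the 6 and was at most 0.0686 CPM in the 15, with a count of 0 in 11. Cyp3a25, a cytochrome P450 with near-identical copies, ran from 0.651 to 11.5 CPM in the 6 and was at most 0.229 CPM in the 15.

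**Figure D3:**
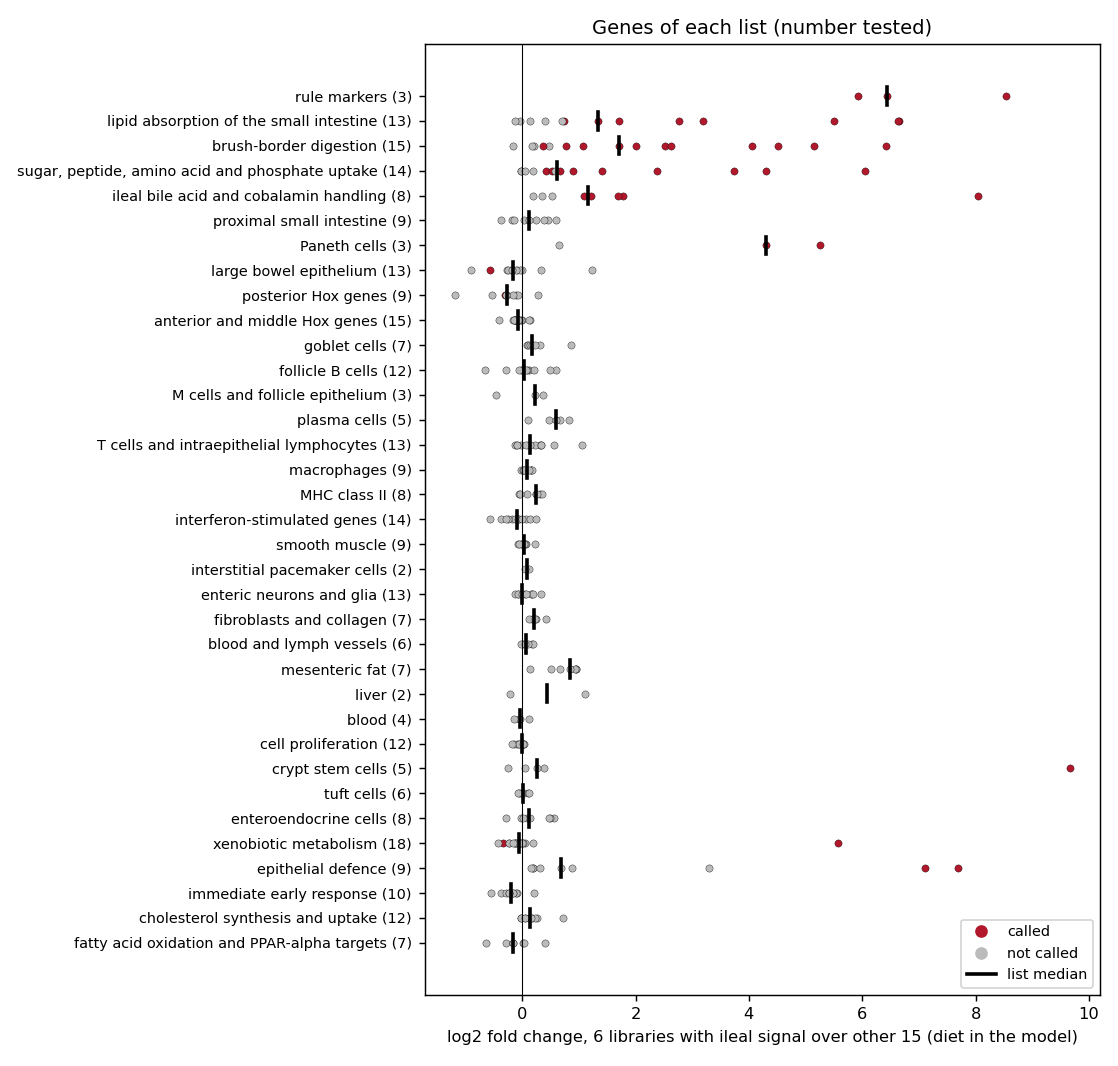
Each point is a tested gene of a list, placed at its log2 change, the 6 libraries over the 15; red points were called, grey points were not, and black bars are list medians. The rule markers and small intestine lists, in the top 7 lines, reach log2 8.54, Olfm4 in the crypt stem cell list reaches 9.66, and most other lists centre near 0.

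Of the 201 genes called higher, 163 were outside the small intestine lists. Those lists name only 90 genes, so a gene outside them may still belong to the small intestine. Slc13a1, a sulfate carrier of ileum and kidney, is among the 163. Of 245 tested genes in the other lists, 4 were called higher and 3 lower, against 1.28% and 0.109% of all genes tested, with a median log2 change of 0.02. With so low a share among all genes, few calls in a list say little about it. The 4 were Olfm4, Cyp3a25, Reg3b and Reg3g, and the 3 were Aqp8, Hoxa10 and Ugt2b5. By edgeR, 23 of 28 such lists with tested genes had no called gene. The cholesterol synthesis, proliferation, smooth muscle, enteric neuron and follicle B cell lists were among them. Smooth muscle genes summed to 1730 to 3657 CPM in the 6 and 1505 to 3826 CPM in the 15. Exocrine pancreas genes were near 0, at no more than 0.579 CPM summed in the 6 and 0.515 CPM in the 15.

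Some lists were high in single libraries of the 6. Plasma cell genes summed to 830 CPM in 1.0% replicate 1, 377 CPM in 0% replicate 5 and 128 to 231 CPM in the other 4, against 98.3 to 230 CPM in the 15. Of 5 tested, 0 were called by edgeR. Among 43 tested immunoglobulin variable and other segments, which are outside that list and similar enough to share reads, 3 were called higher and 0 lower. Of all genes tested, 1.28% were called higher. They were Igkv10-94, whose highest levels were 6.63 CPM (0% replicate 5) and 4.89 CPM (2.5% replicate 1), Igkv4-61, at 3.30 CPM in 1.0% replicate 1, and Iglv1, at 12.7 CPM in 1.0% replicate 1. In the 15 libraries they reached at most 0.307, 0.301 and 1.69 CPM. In that order, they stood above all 15 in only 3, 3 and 1 of the 6 libraries. Igkv10-94 was at 0.031 and 0.0251 CPM in 0.5% replicates 1 and 4, below the median of 0.106 CPM in the 15. Mesenteric fat genes summed to 332 CPM in 1.0% replicate 1 and to 74.3 to 133 CPM in the other 5, against 30.95 to 244 CPM in the 15; 0 of 7 were called. MHC class II genes summed to 178 CPM in 1.0% replicate 1 and 65.5 to 117 CPM in the other 5, against 73.0 to 112 CPM in the 15. The part of these cells in the signal of 1.0% replicate 1 was not tested. Goblet cell genes had a positive log2 change in 7 of 7, with 0 called and a small list median of 0.17. Of all genes tested, 49.8% had a positive change. Muc2, the main gel-forming mucin, had 3777 CPM in 0% replicate 5 and 1411 to 2395 CPM in the other 5, against 678 to 2041 CPM in the 15. Its log2 change was 0.87 ± 0.21 (SE), with an adjusted p of 0.0516 by edgeR.

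The genes called lower changed little by comparison. Their log2 changes ran from -0.62 to -0.26, and 0 of the 17 were over 2-fold. In whole tissue, fewer cells of a type and less RNA per cell cannot be told apart. Aqp8, a water channel of colon surface cells (chr7:123462291-123468004), had 263 CPM in 0% replicate 5, 443 and 426 CPM in 0.5% replicates 1 and 4, 373 CPM in 1.0% replicate 1, and 428 and 429 CPM in 2.5% replicates 1 and 2. The 15 ran from 361 to 742 CPM with a median of 542, so all 6 lay below that median but 5 of them within the range. Aqp8 fell by 0.57 ± 0.13 (SE) on the log2 scale, with an adjusted p of 0.034 by edgeR, but lost its call in 15 of 31 alternative settings (adjusted p 0.000715 to 0.629). Aqp8 was the only called gene of 13 tested in the large bowel list, whose median log2 change was -0.16 with 3 positive.

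Ihh, the hedgehog ligand of differentiated colon epithelium (chr1:74945315-74951672), had 117 CPM in 0% replicate 5, 163 and 148 CPM in 0.5% replicates 1 and 4, 147 CPM in 1.0% replicate 1, and 158 and 144 CPM in 2.5% replicates 1 and 2, against 152 to 210 CPM in the 15. It lay below all 15 in 4 of the 6 libraries and fell by 0.34 ± 0.07 (SE), with an adjusted p of 0.00677 by edgeR, and lost its call in 2 of the 31 settings. Hoxa10, a posterior Hox factor, ran from 41.0 CPM in 1.0% replicate 1 to 63.4 CPM in 2.5% replicate 2, against 54.4 to 73.8 CPM in the 15. It fell by 0.30 ± 0.07 (SE), with an adjusted p of 0.0283 by edgeR that missed the threshold in 9 of the 31 settings, and 5 of the 6 lay below the median of the 15. Hoxa10 was the 1 called of 9 tested posterior Hox genes. Of the 9, 1 had a positive log2 change, Hoxc10, and the list median was -0.26. Anterior and middle Hox genes had 0 called of 15, with a median of -0.08.

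Genes of xenobiotic and ester metabolism were among those called lower. Ugt2b5, a glucuronosyltransferase, ran from 26.3 to 39.2 CPM in the 6 and from 35.7 to 52.4 CPM in the 15, and fell by 0.33 ± 0.07 (SE; adjusted p 0.00635 by edgeR), a call lost in 3 of the 31 settings. Ces1g, a carboxylesterase, had 89.5 CPM in 0% replicate 5 and 134 to 202 CPM in the other 5, against 147 to 214 CPM in the 15, and fell by 0.38 ± 0.09 (SE; adjusted p 0.0192 by edgeR), a call lost in 4. Gstm3, a glutathione transferase, ran from 16.6 to 33.8 CPM in the 6 and from 26.7 to 39.8 CPM in the 15. These 3 belong to families with near-identical copies, so their counts are uncertain. Slc16a9, a monocarboxylate family carrier, fell by 0.35 ± 0.08 (SE; adjusted p 0.0245 by edgeR), a call lost in 5. The xenobiotic list as a whole had 1 gene called higher and 1 lower of 18.

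The other named decreases had no shared list. Tnni1, the slow skeletal troponin I, fell by 0.60 ± 0.12 (SE; adjusted p 0.00803 by edgeR), Tmem132c by 0.62 ± 0.15 (0.0362), Foxred2 by 0.53 ± 0.13 (0.0446) and Nrep by 0.33 ± 0.08 (0.0371). Cish, an inhibitor of cytokine signalling induced by STAT5, fell by 0.42 ± 0.10 (adjusted p 0.0207 by edgeR), and Esrrg, an orphan nuclear receptor of oxidative metabolism, by 0.39 ± 0.09 (0.0308). Of the 31 settings, Tnni1 lost its call in 3, Cish in 6, Esrrg and Nrep in 9 each, Tmem132c in 13 and Foxred2 in 20. Srgap3, named here after its values were seen, was the 1 gene of 15652, or 0.00639%, with all 6 libraries below all 15. It had 44.8 to 52.0 CPM in the 6 and 52.7 to 66.6 CPM in the 15.

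**Figure D4:**
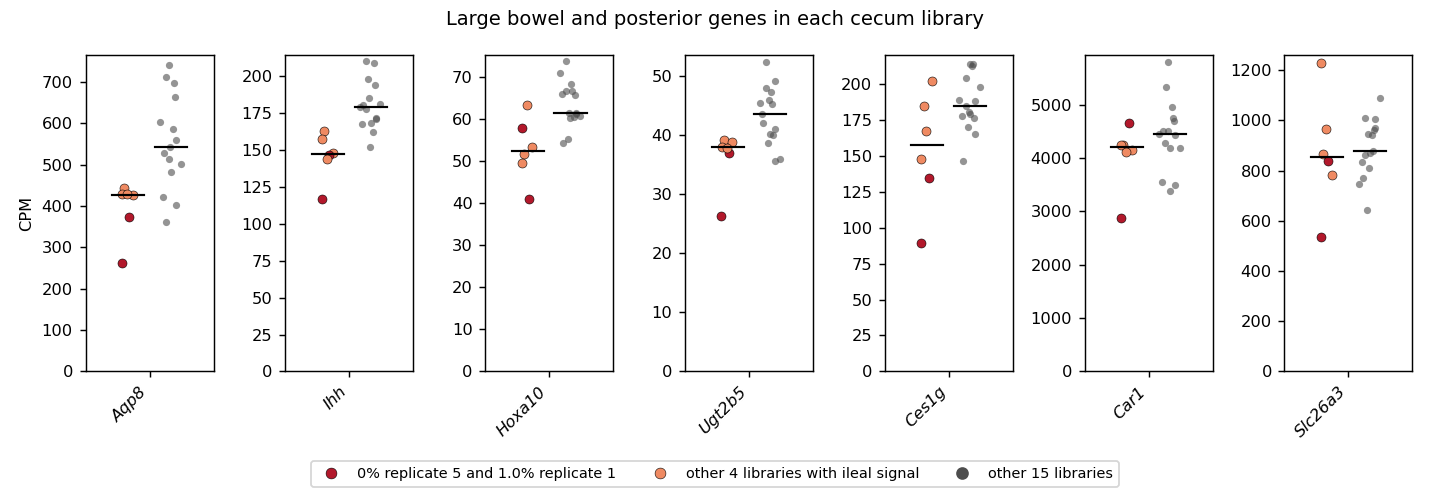
Level of 7 genes in each library in CPM, each panel on its own axis from 0, with bars at the medians. Red points are 0% replicate 5 and 1.0% replicate 1, orange points the other 4 libraries with ileal signal and grey points the other 15. Aqp8, Ihh, Hoxa10, Ugt2b5 and Ces1g were called lower, and Car1 and Slc26a3 were not.

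Car1 and Slc26a3 were not called. Car1 ran from 2868 to 4650 CPM in the 6 and from 3372 to 5790 CPM in the 15. Slc26a3, the chloride-bicarbonate exchanger of colon surface cells, ran from 536 to 1228 CPM in the 6 and from 644 to 1090 CPM in the 15. In 10 of the 17 genes called lower, 0% replicate 5 was the lowest of the 21 libraries, and in 5 it was 1.0% replicate 1. The number called lower was 3 without 0% replicate 5, of which 1 was among the 17, and 6 without 1.0% replicate 1, of which 4 were. Without both it was 2, of which 0 were among the 17. The other 4 libraries all lay below the median of the 15 in 11 of the 17 genes.

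Diet was not used to choose the libraries. The signal was found in 1 of 6 libraries at 0%, 2 of 5 at 0.5%, 1 of 5 at 1.0% and 2 of 5 at 2.5%. An exact permutation test over all 54264 ways to place 6 libraries among 21 gave a two-sided p of 0.793 for an uneven spread over diets. With so few libraries this does not show that the shares are equal. The 2 highest libraries were 1 at 1.0% and 1 at 0%.

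The count called between diets depended on how the signal was entered, on the scaling and on single libraries. With a term for the signal in the model, 42 genes were called at 2.5% against 0%, 36 higher and 6 lower, or 0.268% of those tested. Without that term 17 were called, or 0.109%, and all 17 were among the 42. With the mean level of the 3 markers in place of the 2 sets it was 18, about the count without a term. With the 2 sets kept and scaling by library totals alone, it was 17. The 42 include Defa24, 2010106E10Rik, Esrrg, Ahrr, which holds back the aryl hydrocarbon receptor, and Mdm2, which limits p53. All 5 were picked out after their values were seen. Defa24 chose the libraries, so its call here supports no effect of diet. Its level was 13.3 CPM in 0% replicate 5, against 1.025 and 0.463 CPM in 2.5% replicates 1 and 2. In the same libraries 2010106E10Rik had 8.62 CPM against 1.05 and 0.666 CPM. It had a count of 0 in 11 of the 15, so its call is no support for an effect of diet either. Defa24, 2010106E10Rik and Esrrg, 3 of the 42, were also called between the 6 libraries and the 15. The count of 42 rests on single libraries: 0 genes were called without 2.5% replicate 4, 4 without 2.5% replicate 3 and 79 without 0% replicate 1. It was 10 to 19 without any 1 of 0% replicates 2 to 6. At 0.5% and 1.0% against 0%, 0 genes were called with the term, while 1251 and 533 genes had an unadjusted p under 0.05 in edgeR. The 2 libraries with ileal signal at 2.5% and the 1 at 0% entered these fits.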

How the data were processed

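Raw gene counts of 21 cecum libraries, as the authors deposited them, were used. Stranded mRNA libraries were sequenced, per the labels' protocols, and mm10 is the build named by the submitters' processing notes. For the aligner, counter, annotation and strand setting: not given in the sources used here. Names and coordinates came from GENCODE mouse release M21 (25268 of 25361 identifiers) and promoters from RefSeq.

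The 6 libraries with ileal signal were set against the other 15 in edgeR 4.0.16 (R 4.3.3), with diet in the model and all 21 libraries. Scaling was TMM, and the quasi-likelihood test was robust. Low counts were removed by filterByExpr, which took from the diets only the smallest set size and counted libraries over all 21. A gene could thus be kept through the 6 libraries alone. Adjusted p values are Benjamini-Hochberg over the 15652 genes kept, two-sided, called under 0.05. DESeq2 1.42.0 and limma 3.58.1 were alternatives. The fit was tested on simulated counts in which the 6 libraries shared the same expected change per gene. In these data the 6 differ in level, so that test does not cover them. Members and lists were chosen with earlier results of these data known. Named genes were the 3 markers, the 12 largest increases and 12 largest decreases called with a mean of at least 1 CPM (no predicted or RIKEN-named genes or antigen receptor segments), up to 4 called genes per list, and 20 fixed genes; further genes, such as other list members, were named after their values were seen. Some items are not reported here. Replicate numbers follow accession order and pair nothing. No pair of libraries of 1 diet agreed within sampling noise (lowest chi-square per degree of freedom 17.1).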

Additional observations from a re-analysis of the deposited data

Results flagged for a closer look

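Of the named genes, 9 had a library whose gap to the nearest of the other 5, within the 6 libraries with ileal signal, was above Dixon's critical value as a share of their range. The usual chance rate of this limit, about 1 in 20 groups, does not apply here. Defa24 chose these libraries, and many of these genes move together. The gaps are a description only. In 1.0% replicate 1, Defa24 stood at 47.3 CPM with the next library at 13.3 CPM, Itln1 at 19.3 with the next at 4.99, Lyz1 at 243 with the next at 78.4, and Slc10a2 at 337 with the next at 178.5. The first 3 of these are Paneth cell genes. In 0% replicate 5, Fgf15 was high at 57.2 CPM, with the next library at 20.96 CPM. The same library was low in Esrrg, at 12.8 CPM with the next at 21.8, in Ugt2b5, at 26.3 CPM, and in Car1, at 2868 with the next at 4119. In 0.5% replicate 4, Cish stood at 17.5 CPM with the next library at 13.5 CPM, so that library lay inside the range of the other 15, which was 13.9 to 22.0 CPM.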

How the results depend on the processing

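Of the 41 named genes called, 23 kept their call in all 31 alternative settings, 18 lost it in at least 1 and 0 changed direction. Those 18 include all 13 named genes called lower, and each of the 18 lost its call without 0% replicate 5 and 1.0% replicate 1 together. Genes called higher (201) numbered 314 with the mean level of the 3 markers as a number in place of 2 sets, 44 without those 2 libraries, 321 without 2.5% replicates 3, 4 and 5 (chosen after seeing the data), and 94 to 227 without 1 library. Genes called lower (17) numbered 10 with library totals, 59 in DESeq2, 49 with the marker level, 2 without those 2 libraries, 30 without 2.5% replicates 3, 4 and 5, and 3 to 29 without 1 library. Genes called at 2.5% against 0% (42) numbered 17 with library totals, 155 in DESeq2, 18 with the marker level, 17 without the ileal term, 16 without the 3 animals numbered above 70, and 0 to 79 without 1 library. The cause of these moves was not tested. Fabp2, not called, changed sign to a log2 of 0.005 with no diet term, 0.035 without 2.5% replicates 3, 4 and 5, 0.04 without 0% replicate 5 and 0.014 without 2.5% replicate 1, and its values without 1 library ran from -0.106 to 0.04. Slc26a3 changed sign to 0.104 without those 2 libraries and 0.019 without 0% replicate 5, with values from -0.196 to 0.019 without 1 library. Ccl25 was not called and passed in at least 1 setting, with a lowest adjusted p of 0.0268. The p of diet and signal ran from 0.516 to 1.0 over its alternatives. No paired analysis was possible because replicate numbers only follow accession order. Depth limits the defensins: Defa24 rested on 16 counts in its lowest library of the 6.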

Other observations

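Genes in this part were named after their values were seen. Their values, and the counts past the threshold, are a description that supports nothing. Of 312 tested solute carriers, those of the lists above included, 29 were called higher and 1 lower, which is 9.29% called higher, against 1.28% of all genes tested. Slc13a1, the sulfate carrier of ileum and kidney, ran from 7.29 to 122 CPM in the 6 libraries and from 0.157 to 1.87 CPM in the 15. Lgals2, a galectin of gut epithelium, ran from 7.93 to 36.5 CPM in the 6 and from 1.33 to 4.21 CPM in the 15. St3gal4, a sialyltransferase, ran from 167 to 893 CPM in the 6 and from 58.5 to 116 CPM in the 15.

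The transcription factors Gata5 and Osr2, outside the lists, also divided the libraries, while Grem1 and Il33 overlapped between the sets. Gata5, a GATA factor of gut epithelium, ran from 6.02 to 25.6 CPM in the 6 and from 1.84 to 5.05 CPM in the 15. Osr2, an odd-skipped zinc finger factor, ran from 12.8 to 33.7 CPM in the 6 and from 2.48 to 11.5 CPM in the 15. Grem1, a BMP antagonist secreted by the mesenchyme around crypts, had 81.4 CPM in 0% replicate 5 and 28.8 to 56.3 CPM in the other 5, against 15.3 to 38.1 CPM in the 15. Il33, an alarmin cytokine, had 32.4 CPM in 0% replicate 5 and 3.68 to 5.86 CPM in the other 5, against 2.31 to 5.26 CPM in the 15.

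Among the 15 libraries, 1.0% replicate 5 had 342 counts of Hoxb13 (5.42 CPM) and 157 counts of Hoxd13 (2.49 CPM), Hox genes of the hindmost gut. No other of the 21 libraries had more than 1 count of Hoxb13 or more than 3 of Hoxd13. This is the same library that had the highest Fabp6, Apoa1 and Defa24 levels outside the 6.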
